A study of Rattus norvegicus with 36 samples.

Results

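Amino acid transporters carry amino acids across the membranes of cells. The 7 genes described here are Slc1a5, Slc1a3, Slc1a1, Slc7a5, Slc3a2, Slc38a2 and Slc7a1, 7 of the 14217 genes that the deposited table measures. They were found as the probe sets whose platform gene symbol is one of these names, which gave 12 probe sets of the 31099 in the table. The 7 were chosen from results of these same arrays, so their values are a description and their p-values are not independent evidence. Gene expression was measured on 36 Affymetrix rat arrays, 3 for each of 12 groups of mammary glands. Rats of the strains Cop and F344 were treated at 55 days of age with NMU (N-nitrosomethylurea) or with saline. The glands were taken 6 h, 1 d or 30 d later. The groups are therefore Cop NMU and Cop control glands, and F344 NMU and F344 control glands, each at the 3 times. Here a control gland is one from a saline-treated rat. The labels call the replicates biological without naming animals, so the p-values measure the spread between these arrays, which may in part be technical. The rats of the 30 d groups were also older at collection than the others, so age and time after treatment cannot be told apart.

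NMU methylates DNA and induces mammary tumours in rats. F344 rats are known as susceptible to such tumours and Cop rats as resistant. Transporters differ in what they carry and in what drives them. Slc1a5 exchanges neutral amino acids and is a main route for glutamine entry. Slc1a3 and Slc1a1 take up glutamate and aspartate together with sodium. Slc7a5 exchanges large neutral amino acids such as leucine and reaches the cell surface bound to the heavy chain Slc3a2. Slc38a2 pumps small neutral amino acids with sodium, and Slc7a1 carries the cationic amino acids arginine and lysine. The mammary gland draws on such carriers to supply milk protein synthesis. Amino acids that have entered a cell activate the kinase complex mTORC1 at the lysosome, and their shortage activates the transcription factor Atf4, which is known to induce several carriers and amino acid synthesis enzymes.

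All values are the authors' deposited log2 expression values, so a difference of 1 is a 2-fold change. The medians of the 36 arrays lay between 5.66 and 5.77. Tests were run on the 20748 probe sets that exceeded, on at least 3 arrays, the array's 40th percentile (log2 values of 4.94 to 5.15). Differences were tested with limma in 1 model of all 12 groups. A probe set was called where the p adjusted over all 20748 (Benjamini-Hochberg) was under 0.05. Of the markers of the labelled tissue, 8 of 8 measured milk protein and secretory genes and 15 of 16 luminal epithelial genes passed the filter. So did 11504 of all 14217 genes by their main probe set, so these counts do not mark the tissue. A list score is the mean, over the tested genes of a list, of each gene's deviation from its own mean. The skeletal muscle score separated single glands most widely, between -4.30 in an F344 control gland at 30 d and 2.75 in an F344 control gland at 1 d. In whole glands, fewer cells of a type and less RNA per cell cannot be told apart. The closest pair of replicates was 1 and 2 of the F344 control glands at 1 d (root mean square log2 difference 0.163, against 0.232 for the next). Replicate 1 of the Cop NMU glands at 30 d stood apart, differing by 0.596 and 0.645 from the other replicates, the widest pairs of all.

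Of the 12 probe sets, 11 were tested. Slc7a1 1387167_at lay below the 40th percentile on all 36 arrays and was left out. After NMU, 1 of the 11 was called in Cop at 6 h, against 6.57% of all probe sets, and it was Slc1a5, lower. None was called in Cop at 1 d, where 0.762% of all were. There 4 of the 11 had an unadjusted p under 0.05, against 10% of all. In Cop at 30 d 1 of 11 was called, Slc7a1 lower, against 9.9% of all. In F344 at 6 h 1 of 11 was called, Slc1a3 higher, against 0.622% of all. There 6 of the 11 had an unadjusted p under 0.05, against 13.4% of all. None was called in F344 at 1 d, against 0.983% of all. There none of the 11 had an unadjusted p under 0.05, against 9.13% of all. In F344 at 30 d 1 of 11 was called, Slc1a1 higher, against 3.29% of all. No gene of the 7 was thus called in more than 1 of these 6 comparisons. In Cop, 3 of the 11 had an unadjusted p under 0.05 at 6 h (18.9% of all) and 2 at 30 d (25.4%). In F344, 3 did at 30 d (18.7%).

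**Figure D1:**
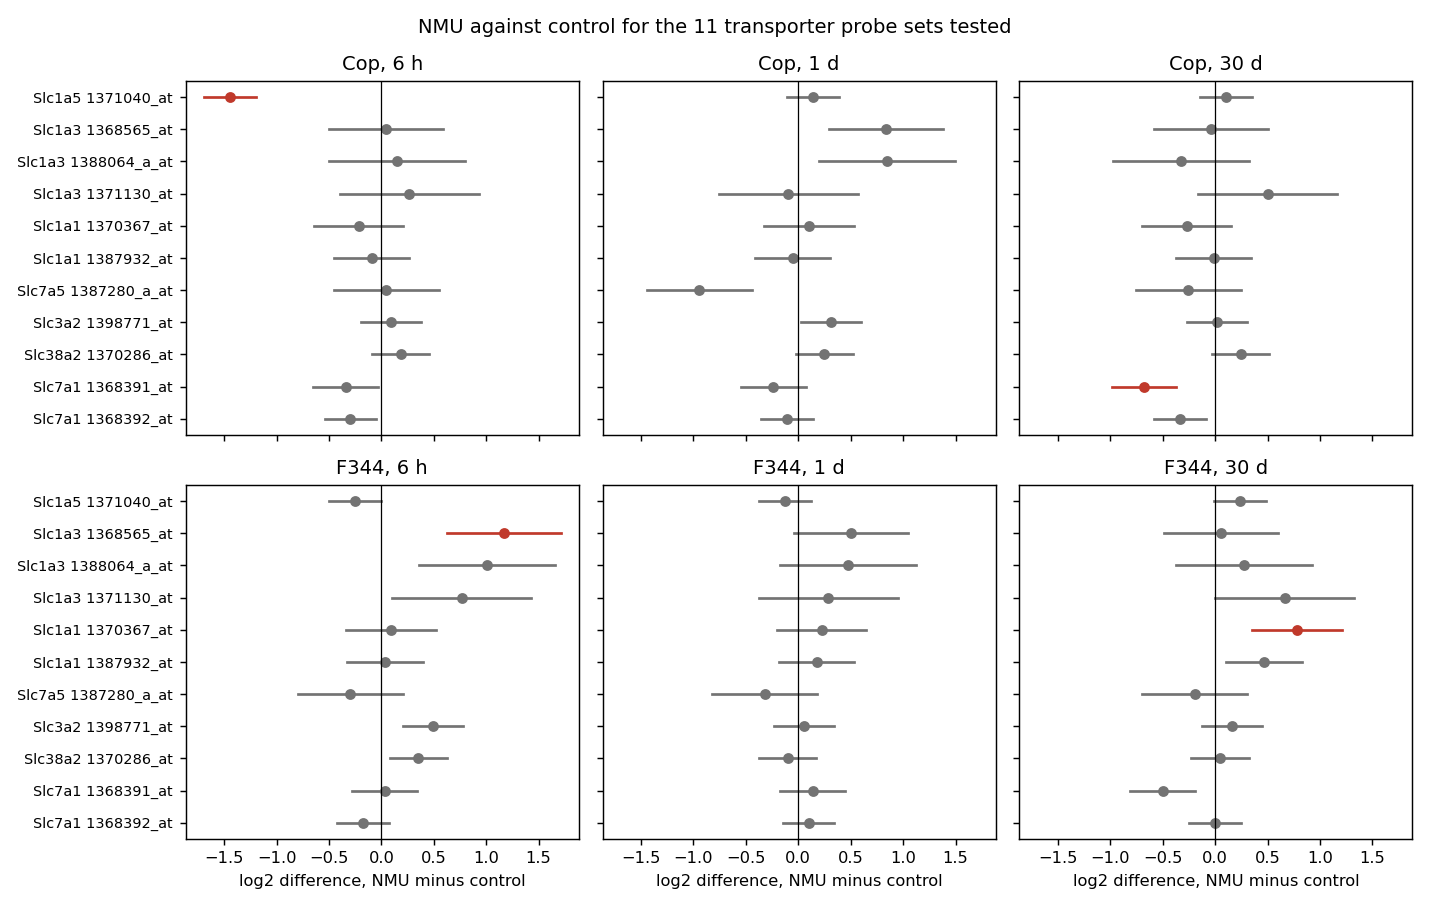
Difference between NMU and control glands (log2, NMU minus control) for the 11 tested probe sets in each strain and time. Points are the fitted differences from 3 arrays a group, lines their 95% confidence intervals, and red marks an adjusted p under 0.05. The one interval far from the rest is that of Slc1a5 in Cop at 6 h, at -1.45.

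Slc1a5 fell after NMU in Cop glands at 6 h. Its single probe set, 1371040_at, gave 9.41, 9.45 and 9.33 in the 3 Cop NMU glands, against 10.94, 10.80 and 10.80 in the 3 Cop control glands. The groups lay far apart for their spread, with means of 9.40 ± 0.057 and 10.84 ± 0.079 (SD, n = 3 each). The log2 difference was -1.45 with a standard error of 0.12, or 2.73-fold lower (limma, adjusted p = 8.86e-09). The call held under all 14 alternatives run, with differences between -1.49 and -1.40. In F344 glands at 6 h, Slc1a5 was 10.98, 11.09 and 11.20 after NMU, against 11.50, 11.30 and 11.22 in controls. These groups did not overlap either, but the difference of -0.25 did not pass (adjusted p = 0.366). The difference between the strains in this response was -1.20 with a standard error of 0.17 (95% interval -1.55 to -0.85, adjusted p = 0.000127), and it too held under all 20 alternatives run. At 6 h, 1 of the 11 probe sets was called for this strain difference, against 0.877% of all probe sets.

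**Figure D2:**
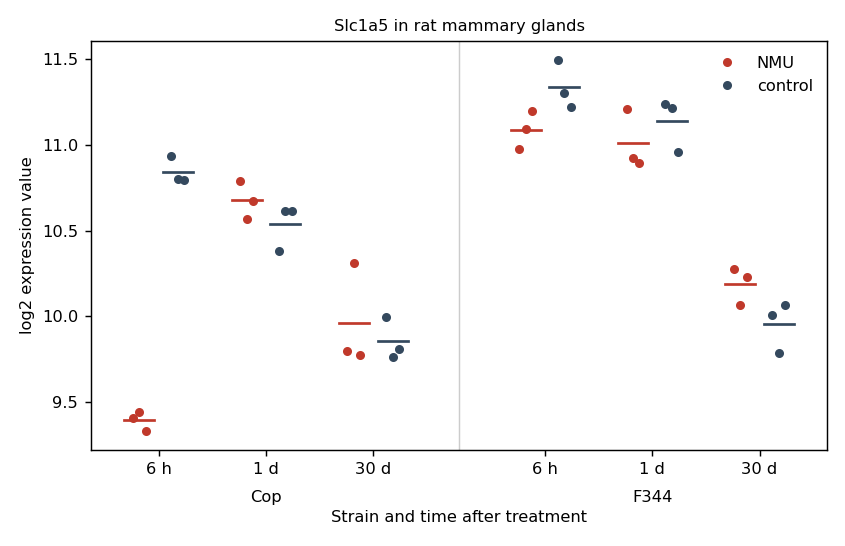
Slc1a5 (log2 expression value, probe set 1371040_at) on each of the 36 arrays, by strain and time after treatment. Points are single glands and lines the mean of 3. The 3 Cop NMU glands at 6 h lie between 9.33 and 9.45, below all other glands, and the 30 d glands lie below the F344 glands of 6 h and 1 d.

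Other cell type markers moved in the same Cop comparison at 6 h, where 6.57% of all probe sets were called. Of 13 fibroblast and matrix genes 10 were higher, with scores of 0.64 to 0.74 in Cop NMU glands, against -0.41 to -0.23 in Cop control glands. Of 15 T and NK cell genes 8 were lower, with scores of -1.26 to -0.08 in Cop NMU glands, against 0.43 to 0.87 in Cop control glands. Of 19 cell division genes 9 were higher, and so were 3 of 10 macrophage and 2 of 3 erythroid genes. Of 11 adipocyte genes 2 were lower, with scores of -0.39 to -0.05 in Cop NMU glands, against -0.06 to 0.12 in Cop control glands, which overlap. Other scores separated these groups. Skeletal muscle scores were -0.40 to 0.91 in Cop NMU glands, against -3.41 to -1.02 in Cop control glands. Basal myoepithelial scores were -0.11 to 0.15, against 0.30 to 0.48, and B cell scores -0.58 to 0.09, against 0.46 to 0.82. Schwann cell and myelin scores were 0.18 to 0.26, against -0.05 to 0.03. No luminal epithelial gene was called in this comparison. The part of these shifts in the Slc1a5 result was not tested.

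At the later times Slc1a5 did not differ between NMU and control glands beyond the spread. In Cop at 1 d it was 10.79, 10.57 and 10.67 after NMU, against 10.38, 10.62 and 10.62 in controls (difference 0.14, 95% interval -0.11 to 0.39). In F344 at 1 d it was 11.21, 10.92 and 10.90 after NMU, against 11.24, 11.21 and 10.96 in controls. Within each pair the glands overlap. At 30 d it was 9.80, 10.31 and 9.78 in Cop NMU glands, against 9.99, 9.76 and 9.81 in Cop control glands. In F344 at 30 d it was 10.28, 10.07 and 10.23 after NMU, against 10.01, 9.79 and 10.07 in controls (difference 0.24, adjusted p = 0.295). The change of the Cop response between the times was not tested.

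Slc1a5 also differed without NMU, between the strains and between the 30 d glands and the earlier ones. In control glands it was lower in Cop than in F344 at 6 h, by 0.50 on the log2 scale (1.41-fold, adjusted p = 0.00491), with every Cop gland below every F344 gland. The same held at 1 d, where the difference was -0.60 (1.52-fold, adjusted p = 0.000949). At 30 d the strains overlapped and the difference was -0.10 (95% interval -0.35 to 0.15). Against the control glands of 6 h and 1 d together, the 30 d control glands were lower by 1.29 in F344 (2.44-fold, adjusted p = 3.78e-10) and by 0.83 in Cop (1.78-fold, adjusted p = 5.07e-06). Each of these 4 calls held under all its alternatives. Ordered by mean, the F344 control glands at 6 h were highest (11.34) and the Cop NMU glands at 6 h lowest (9.40). Neighbours in that order overlapped except at 3 steps: below the Cop control glands at 6 h, below those at 1 d, and above the lowest group.

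Markers moved in these control comparisons as well. Of all probe sets, 27.1% were called at 30 d in F344 and 7.5% at 30 d in Cop. Between the strains 19% were called at 6 h and 15.2% at 1 d. In F344 the 30 d control glands were lower than the earlier ones in 14 of 15 skeletal muscle genes and 5 of 11 adipocyte genes, and higher in 14 of 15 luminal epithelial and 8 of 8 milk protein genes. In Cop, where Slc1a5 was also lower at 30 d, none of the 15 muscle genes and none of the 15 luminal genes was called, and 3 of 11 adipocyte genes were lower. Between the strains, 7 of 15 muscle genes were lower in Cop control glands at 6 h and again at 1 d. At 6 h 6 of 13 fibroblast genes were lower and 6 of 9 basal epithelial genes higher in Cop, and at 1 d 8 of 11 adipocyte genes were lower and 15 of 19 cell division genes higher. Their part in the Slc1a5 differences was not tested.

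The genes whose 12 group means were most like those of Slc1a5, among 11503 other genes, were Nat8l (Pearson r = 0.965), Dgat2 (0.964) and Angptl8 (0.963). Within groups, over the 36 arrays' deviations from their group means, the same correlations were 0.515, 0.720 and 0.478. These points share arrays and glands, and the likeness is a description. Of the marker lists, the adipocyte score had the highest r with Slc1a5 within groups (0.523, and 0.681 over the group means). The fibroblast and matrix score had r = -0.737 over the group means, but 0.020 within groups. The part of these cell types in the Slc1a5 values was not tested.

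Slc1a3, a glutamate and aspartate carrier best known from glia, was higher after NMU in F344 glands at 6 h. The probe set of highest mean, 1368565_at, gave 10.53, 10.10 and 9.65 in F344 NMU glands, against 9.48, 8.80 and 8.49 in F344 control glands. The groups did not overlap, but each was widely spread. The difference was 1.17 with a standard error of 0.27 (2.25-fold, adjusted p = 0.0353). The other probe sets did not pass: 1388064_a_at differed by 1.00, with overlapping glands (adjusted p = 0.156), and 1371130_at by 0.77, without overlap (adjusted p = 0.304). The call was lost in 6 of 14 alternatives. In 4 of them 1 array was left out: F344 control replicate 2 (adjusted p = 0.136) or 3 (0.252), or F344 NMU replicate 1 (0.185) or 2 (0.127). It was also lost with no filter (0.0506) and with only the compared arrays in the model (0.215).

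In F344 at 6 h, 2 of 13 fibroblast and matrix genes were lower after NMU, where 0.622% of all probe sets were called. No other marker list had a called gene. Several scores nevertheless separated the groups. Adipocyte scores were 0.38 to 0.45 in F344 NMU glands, against 0.07 to 0.27 in F344 control glands, and endothelial scores -0.24 to -0.08, against -0.41 to -0.31. T and NK cell scores were -0.55 to -0.49 in F344 NMU glands, against -0.15 to 0.18 in F344 control glands. Within groups over the 36 arrays, 1368565_at had r = 0.573 with the adipocyte score and 0.518 with the endothelial score. The part of these shifts in the Slc1a3 result was not tested. In Cop at 6 h, Slc1a3 1368565_at was 9.32, 9.55 and 9.50 after NMU, against 9.33, 9.57 and 9.33 in controls, which overlap. The strain difference in the response was -1.12 (95% interval -1.89 to -0.35) and did not pass (adjusted p = 0.202). In Cop at 1 d the same probe set was 9.29, 9.89 and 9.25 after NMU, against 8.44, 8.85 and 8.64 in controls. These glands did not overlap, but the difference of 0.83 did not pass (adjusted p = 0.157). There 1388064_a_at averaged 8.04 ± 0.044 after NMU, against 7.19 ± 0.17 in controls (SD, n = 3 each; difference 0.85, limma, adjusted p = 0.264). In a model of those 6 arrays alone its adjusted p was 0.0132. One F344 NMU gland at 1 d, replicate 3, stood at 10.19 on 1368565_at, above its neighbours at 8.97 and 9.10, and it was also the highest of its group on 1388064_a_at (8.54).

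At 30 d, Slc1a3 1368565_at lay between 8.39 and 9.06 in Cop NMU glands, against 8.51 to 9.27 in Cop control glands, and between 8.90 and 9.12 in F344 NMU glands, against 8.84 to 9.09 in F344 control glands. No Slc1a3 probe set was called in any comparison of control glands. With only the compared arrays in the model, 1371130_at was called lower in Cop than in F344 at 6 h (-0.65, adjusted p = 0.00704) and at 1 d (-0.90, adjusted p = 0.00342). Over the 12 group means 1368565_at followed 1388064_a_at (r = 0.952, and 0.843 within groups over 36 arrays), but 1371130_at hardly (r = 0.164). The last had its widest group in F344 NMU glands at 1 d, with 7.31, 5.42 and 7.37. The genes most like 1368565_at over the group means were Tdp2 (0.975), Zrsr2-ps1 (0.911) and Crbn (0.910).

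Slc1a1, the glutamate carrier of many epithelia and neurons, lay near the filter. Its main probe set, 1370367_at, passed the 40th percentile on 21 of 36 arrays, and 1387932_at on 7. In F344 glands at 30 d 1370367_at gave 5.72, 5.84 and 5.39 after NMU, against 4.77, 5.04 and 4.79 in controls. All NMU glands lay above all controls, by 0.78 on average with a standard error of 0.21 (1.72-fold, adjusted p = 0.0332). 1387932_at differed by 0.47, overlapped and did not pass (adjusted p = 0.137), except without F344 NMU replicate 3 (0.66, adjusted p = 0.0326). The call was lost in 5 of 13 alternatives: with only the compared arrays in the model (adjusted p = 0.106), without F344 control replicate 1 (0.151) or 3 (0.109), and without F344 NMU replicate 1 (0.145) or 2 (0.170). In the same comparison 14 of 19 cell division genes were lower and 3 of 10 endothelial genes were higher, where 3.29% of all probe sets were called. Within groups over the 36 arrays, 1370367_at had r = 0.571 with the milk protein, -0.550 with the endothelial and -0.488 with the adipocyte score. Luminal epithelial scores were 0.33 to 0.72 in F344 NMU glands, against 0.81 to 1.01 in F344 control glands. The muscle, adipocyte, Schwann cell and erythroid scores were higher in every F344 NMU gland than in every control. The part of these shifts was not tested.

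In Cop at 30 d Slc1a1 1370367_at was 5.01, 5.05 and 4.70 after NMU, against 4.67 to 5.60 in controls, which overlap. The strain difference in the response was -1.05 (95% interval -1.66 to -0.45), with an unadjusted p of 0.00128 in limma. No probe set passed the adjusted threshold for a strain difference at 30 d (0% of all), while 678 had an unadjusted p under 0.05, and leaving out single arrays gave up to 45 calls. At 1 d, 0.207% of all probe sets and none of the 11 were called for a strain difference. In the other 5 NMU comparisons Slc1a1 differed by -0.27 to 0.22 on its main probe set. Its most like genes reached r = 0.830 (LOC102548047), 0.828 (Kazn) and 0.807 (LOC100911506) over the 12 group means, lower than the values for Slc1a5.

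**Figure D3:**
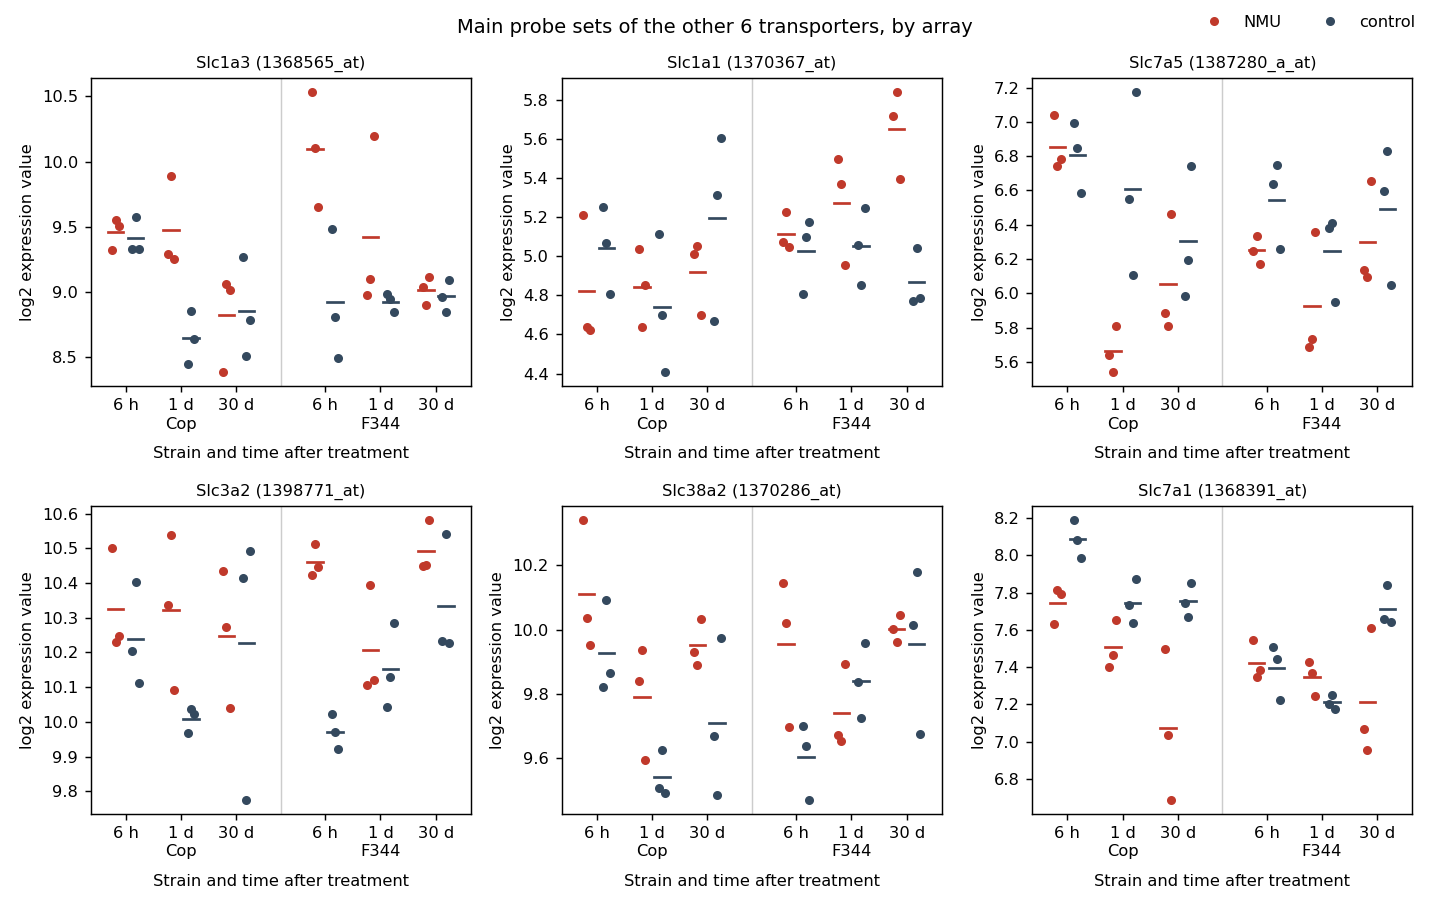
Log2 expression value of the main probe set (highest mean) of Slc1a3, Slc1a1, Slc7a5, Slc3a2, Slc38a2 and Slc7a1 on each array, by strain and time after treatment. Points are single glands and lines the mean of 3, and each panel has its own scale. Slc1a3 in F344 at 6 h, Slc1a1 in F344 at 30 d and Slc7a1 in Cop at 30 d are the comparisons of NMU with control that were called.

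Slc7a5 and Slc3a2 form one exchanger, the first as its transport chain and the second as the heavy chain that it shares with other carriers. Slc7a5 1387280_a_at was not called in any comparison. Its widest difference was in Cop at 1 d, with 5.64, 5.54 and 5.81 in NMU glands, against 6.55, 6.11 and 7.17 in controls. The groups did not overlap, but the controls were widely spread, and the difference of -0.94 (95% interval -1.45 to -0.44) had an adjusted p of 0.0604. It passed after quantile normalization (0.0470) and without Cop control replicate 2 at 1 d (difference -1.20, adjusted p = 0.0299). In that comparison 8 of 19 cell division genes were lower, where 0.762% of all probe sets were called. The cell division scores were -0.58 to -0.46 in Cop NMU glands, against 0.31 to 0.87 in Cop control glands. The part of these genes was not tested. In F344 at 1 d Slc7a5 was 5.69, 5.73 and 6.36 after NMU, against 6.38, 6.41 and 5.95 in controls, which overlap (-0.32, 95% interval -0.82 to 0.18). In the remaining 4 NMU comparisons its differences lay between -0.30 and 0.04.

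Slc3a2 1398771_at was likewise not called in any comparison, and its 12 group means covered only 9.97 to 10.49. In F344 at 6 h it was 10.42, 10.51 and 10.45 after NMU, against 10.02, 9.97 and 9.92 in controls. The groups were tight and did not overlap, yet the difference of 0.49 with a standard error of 0.14 did not pass (adjusted p = 0.106). In Cop at 6 h it was 10.50, 10.23 and 10.25 after NMU, against 10.20, 10.40 and 10.11 in controls. In Cop at 1 d the NMU glands gave 10.34, 10.54 and 10.09, against 9.97, 10.04 and 10.02 in controls (0.31, adjusted p = 0.419). In F344 control glands the difference of 30 d from the earlier times was 0.27 (adjusted p = 0.0994), and it passed after quantile normalization (0.0379). Between the chains of the exchanger, r over the group means was -0.207. Slc3a2 had as its most like genes Pcnp (0.906), Xpa (0.886) and Appl2 (0.866), and Slc7a5 had Dsp (0.859), Gabpb1 (0.836) and Egfr (0.815).

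The promoter window of Slc7a5 is shown because it holds an E-box, CACGTG, the motif bound by Myc and related factors. The window is the 250 bases before the annotated start in RefSeq (build GRCr8), on the minus strand of chr19:66872413-66872662, 5′ to 3′, with the motif in capitals. Its first base lies 179 bases before the start.
Slc7a5: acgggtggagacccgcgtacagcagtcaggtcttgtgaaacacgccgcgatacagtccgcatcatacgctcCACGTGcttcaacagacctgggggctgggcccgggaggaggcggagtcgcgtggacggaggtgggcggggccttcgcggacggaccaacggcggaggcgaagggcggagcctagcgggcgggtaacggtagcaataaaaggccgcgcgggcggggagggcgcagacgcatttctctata
The motif is its own reverse complement, and 5.59% of 33469 such windows hold it. Of the 7 genes, 5 had windows in the table, 8 windows in all, and this was the only one with that motif.

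Slc38a2, a sodium-coupled carrier of glutamine and alanine known to be induced when amino acids run short, was not called in any comparison. Its probe set 1370286_at had group means of 9.54 to 10.11. In F344 at 6 h it was 10.14, 10.02 and 9.70 after NMU, against 9.70, 9.64 and 9.47 in controls (0.35, 95% interval 0.08 to 0.63, adjusted p = 0.248). The lowest NMU gland met the highest control. In Cop at 1 d it was 9.84, 9.94 and 9.60 after NMU, against 9.51, 9.63 and 9.49 in controls (0.25, adjusted p = 0.572). In F344 control glands the difference of 30 d from the earlier times was 0.23 (adjusted p = 0.141), and it passed without F344 control replicate 3 at 30 d (0.38, adjusted p = 0.0321). Over the 12 group means Slc38a2 and Slc3a2 had r = 0.799, and 0.572 within groups over 36 arrays, which share glands and arrays. The genes most like Slc38a2 were Ccpg1 (0.943), Zfyve1 (0.932) and Ifnlr1 (0.931).

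Slc7a1, the arginine and lysine carrier, was lower after NMU in Cop glands at 30 d. Probe set 1368391_at gave 7.50, 7.04 and 6.69 in Cop NMU glands, against 7.74, 7.67 and 7.85 in Cop control glands. All NMU glands lay below all controls, and the NMU glands were the more scattered. The difference was -0.68 with a standard error of 0.15 (1.60-fold, adjusted p = 0.00613). It was -0.49 without Cop NMU replicate 3 (adjusted p = 0.0962), and in a model of the 6 compared arrays alone the adjusted p was 0.356. Those were the 2 of 14 alternatives that lost the call. The second probe set, 1368392_at, gave 6.87, 6.43 and 6.48 after NMU, against 6.89, 7.01 and 6.88 in controls, without overlap, and its difference of -0.34 did not pass (adjusted p = 0.0703), except without Cop NMU replicate 1 (-0.47, adjusted p = 0.00763).

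In F344 at 30 d Slc7a1 1368391_at was 7.07, 6.95 and 7.61 after NMU, against 7.66, 7.84 and 7.64 in controls. The glands did not overlap, and the difference of -0.50 just missed the threshold (adjusted p = 0.0580). It passed with the filter at the 60th percentile (0.0472) and without F344 NMU replicate 3 (difference -0.70, adjusted p = 0.00764). There 1368392_at did not follow: its difference was -0.00068. The strain difference in the response at 30 d was -0.18 (95% interval -0.61 to 0.26). Markers moved with the Cop comparison, where 9.9% of all probe sets were called. Of these markers, 8 of 10 endothelial and 6 of 13 fibroblast genes were higher. Lower were 8 of 15 T and NK cell, 4 of 6 B cell, 5 of 8 milk protein and 10 of 19 cell division genes. The cell division scores were -0.53 to -0.32 in Cop NMU glands, against 0.02 to 0.73 in Cop control glands. The lymphocyte scores did not separate the groups, because Cop NMU replicate 1, the gland that stood apart, lay among the controls. Its T and NK cell score was 0.63, with -1.93 and -1.85 in the other Cop NMU glands, against 0.37 to 0.86 in Cop control glands. Its B cell score was 1.22, with -2.92 and -2.82 in the other Cop NMU glands, against 0.64 to 1.27 in Cop control glands. Slc7a1 1368391_at had r = 0.658 with the T and NK cell score within groups over the 36 arrays, and 0.659 with the B cell score. It also had 0.605 with the luminal epithelial, 0.500 with the basal and -0.549 with the fibroblast score. The second probe set, 1368392_at, had 0.451 with the T and NK cell and 0.410 with the B cell score. Without Cop NMU replicate 1 the Cop difference of 1368391_at was -0.89 (adjusted p = 0.000117). The part of these markers was not tested.

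At the earlier times Slc7a1 was not called after NMU. In Cop at 6 h 1368391_at was 7.63, 7.81 and 7.79 after NMU, against 8.19, 8.08 and 7.99 in controls, without overlap (-0.34, adjusted p = 0.204). The second probe set showed 6.58, 6.51 and 6.60 after NMU, against 7.01, 6.75 and 6.82 in controls (-0.30, adjusted p = 0.156). The F344 differences of the probe sets were 0.03 and -0.18 at 6 h, and 0.14 and 0.10 at 1 d.

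Among control glands Slc7a1 was higher in Cop than in F344. At 6 h 1368391_at gave 8.19, 8.08 and 7.99 in Cop, against 7.51, 7.44 and 7.22 in F344 (0.69 with a standard error of 0.15, 1.62-fold, adjusted p = 0.00195). Slc1a5 and Slc7a1 were the 2 of 11 probe sets called there, against 19% of all. At 1 d it gave 7.73, 7.63 and 7.87 in Cop, against 7.20, 7.25 and 7.18 in F344 (0.54, adjusted p = 0.0146), and 1368392_at was called too (0.43, adjusted p = 0.0148). Together with Slc1a5 these were 3 of 11, against 15.2% of all. The 1 d calls were lost without Cop control replicate 3 for the first (adjusted p = 0.0747), and without F344 control replicate 1 (0.0850) or with only the compared arrays in the model (0.0567) for the second. The muscle, fibroblast, basal epithelial, adipocyte and cell division genes that differed between these control glands are given with Slc1a5, and their part was not tested. At 30 d the difference was 0.04 (95% interval -0.27 to 0.35), and none of the 11 was called against 2.83% of all.

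Slc7a1 was higher in F344 control glands at 30 d than at the earlier times. 1368391_at gave 7.66, 7.84 and 7.64 at 30 d, against 7.18 to 7.51 in the 6 earlier glands (0.41, adjusted p = 0.0182), and 1368392_at gave 6.80 in all 3 glands at 30 d, against 6.26 to 6.77 (0.32, adjusted p = 0.0228). With Slc1a5, lower, 3 of 11 were called, against 27.1% of all. Without F344 control replicate 2 at 30 d neither passed (adjusted p = 0.102 and 0.0634). The second was also lost without F344 control replicates 1 (0.0635) or 3 (0.0649) at 30 d, 2 at 6 h (0.0609) or 1 at 1 d (0.0547), and with only the compared arrays (0.0676). Over the 12 group means 1368392_at had r = 0.835 with the basal, 0.798 with the milk protein and 0.687 with the luminal score. Within groups over the 36 arrays these were 0.163, -0.160 and 0.189. The marker genes that differed in this F344 comparison are given with Slc1a5, and their part was not tested. In Cop control glands, where 1 of 11 was called at 30 d against 7.5% of all, Slc7a1 1368391_at differed by -0.16 (95% interval -0.43 to 0.11). The genes most like Slc7a1 over the 12 group means were Hnrnpc (0.950), Lrrfip1 (0.945) and Sf3b3 (0.942).

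The promoter window of Slc7a1 is shown because it alone of the 8 windows holds TGATGNAA, the core of the amino acid response element that Atf4 binds. It is the plus strand of chr12:11664238-11664487 (RefSeq, build GRCr8), 5′ to 3′, ending at the base before the annotated start, with the match TGATGAAA in capitals.
Slc7a1: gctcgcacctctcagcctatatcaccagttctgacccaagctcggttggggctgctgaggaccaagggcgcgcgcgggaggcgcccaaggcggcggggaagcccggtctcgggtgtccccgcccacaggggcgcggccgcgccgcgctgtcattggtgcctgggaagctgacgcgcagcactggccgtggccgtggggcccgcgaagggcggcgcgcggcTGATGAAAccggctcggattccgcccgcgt
The match begins 30 bases before the start. Both strands were searched, and 3.4% of the 33469 windows hold a match. A match is letters in a sequence and not a measured site.

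The 7 transporters did not move as a group. Between their tested probe sets the correlations over the 12 group means ran between -0.774 and 0.952, the highest being that of the paired Slc1a3 probe sets. Slc1a5 had r between -0.484 and 0.300 with every probe set of the other 6 genes. Among the transporters outside the 7 that were compared with it, r ran from -0.879 (Slc43a2) to 0.947 (Slc36a2). Within groups over 36 arrays these values were -0.013 and 0.606.

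Of 43 other amino acid transporters listed, 37 were measured and 25 tested. After NMU in Cop at 6 h 2 were higher and 1 lower (12%, against 6.57% of all probe sets), with a median log2 difference of 0.06 over the list, against -0.0017 over all probe sets. The one that fell was Slc36a2, a proton-coupled carrier of glycine and proline. It gave 7.52, 7.73 and 7.61 in Cop NMU glands, against 9.03, 9.12 and 9.01 in Cop control glands (-1.43 with a standard error of 0.20, 2.70-fold, adjusted p = 2.955e-05, held in 14 of 14 alternatives). In F344 at 6 h Slc36a2 was 9.47, 9.68 and 9.46 after NMU, against 9.81, 9.61 and 9.58 in controls, which overlap. The 2 that were higher in Cop at 6 h were Slc7a6 (0.62, adjusted p = 0.0401) and Slc43a2 (0.42, adjusted p = 0.0436). Slc7a6 lost its call without Cop control replicate 1 (adjusted p = 0.216) or 3 (0.0932), or without Cop NMU replicate 2 (0.141) or 3 (0.189). With no filter on dim probe sets it was lost as well. Slc43a2 lost its call without any 1 of the 6 arrays, with adjusted p between 0.0834 and 0.156. It was also lost with quantile normalization and with no filter. At 1 d none of the 25 was called in either strain, and in F344 at 6 h none was.

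At 30 d Slc7a10, a light chain that carries small neutral amino acids, was higher after NMU in both strains. It averaged 8.50 ± 0.58 in Cop NMU glands, against 7.78 ± 0.33 in Cop control glands (0.72, adjusted p = 0.0198), and 8.91 ± 0.12 in F344 NMU glands, against 8.17 ± 0.29 in F344 control glands (0.74, adjusted p = 0.0322; SD, n = 3 each). In Cop the groups overlap, and the call was lost without Cop NMU replicate 2 (adjusted p = 0.166) or Cop control replicate 2 (0.106). In F344 it was lost without F344 control replicate 1 (0.153) or 2 (0.0904), or without NMU replicate 1 (0.115), 2 (0.0930) or 3 (0.0721). In Cop at 30 d Slc43a1, a carrier of branched and other large neutral amino acids, was also higher (1.19, adjusted p = 0.0138), and so was Slc38a6 (0.56, adjusted p = 0.0202). Both calls were lost without Cop control replicate 2 (adjusted p = 0.0812 for Slc43a1 and 0.102 for Slc38a6) or Cop NMU replicate 3 (0.152 and 0.144). With only the compared arrays in the model none of the 4 calls at 30 d held. In all, 3 of 25 rose in Cop at 30 d (12%, against 9.9% of all probe sets) and 1 of 25 in F344 (4%, against 3.29%), shares near those of all probe sets.

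**Figure D4:**
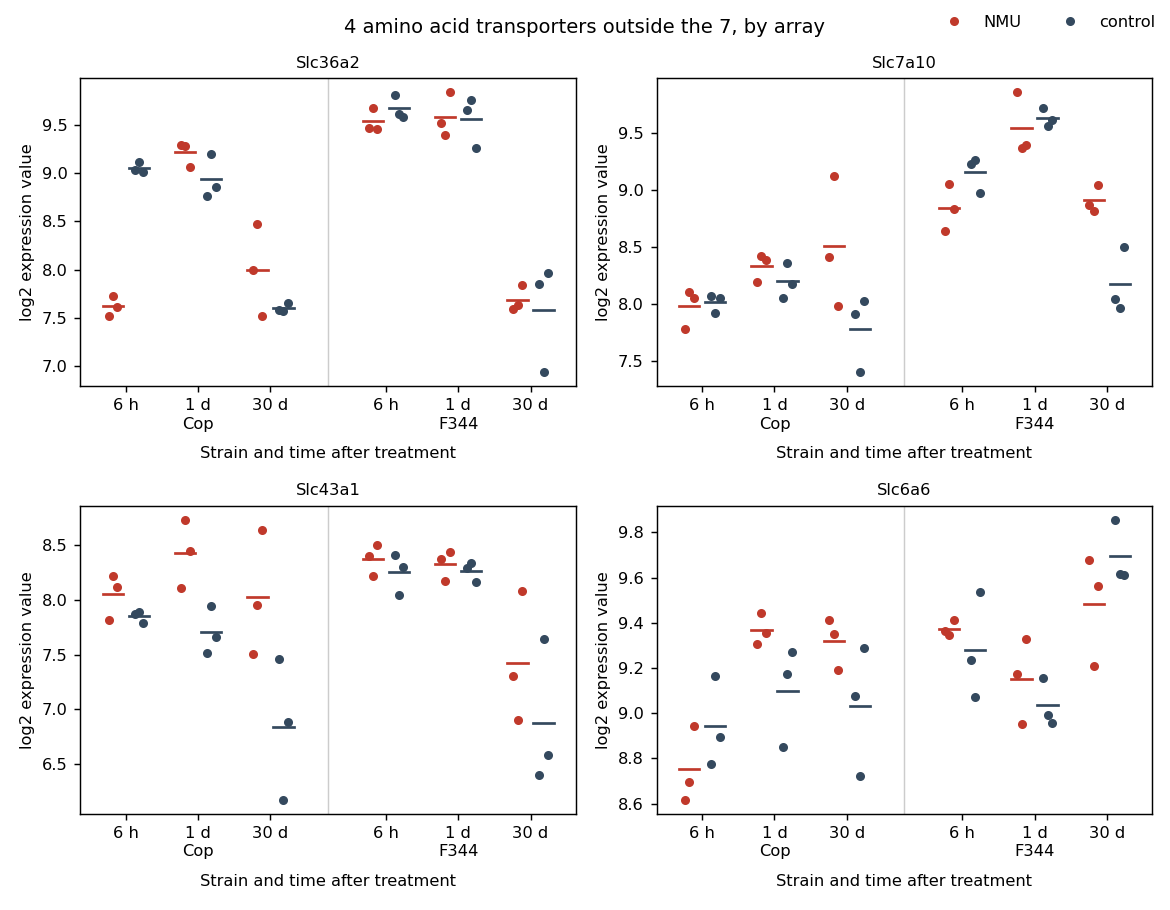
Log2 expression value of Slc36a2, Slc7a10, Slc43a1 and Slc6a6 on each array, by strain and time after treatment, with each panel on its own scale. Points are single glands and lines the mean of 3. Slc36a2 in the Cop NMU glands at 6 h lies between 7.52 and 7.73, and in the Cop control glands at 6 h between 9.01 and 9.12.

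Among control glands, Slc3a1, the heavy chain of the cystine carrier, was higher in Cop than in F344 at 6 h (0.83, adjusted p = 0.000623) and at 1 d (0.83, adjusted p = 0.000614). Slc7a10 was lower in Cop at 6 h (-1.14, adjusted p = 0.000158) and at 1 d (-1.44, adjusted p = 8.72e-06). Slc6a14, a broad carrier of neutral and cationic amino acids, was lower in Cop at 6 h (-1.92, adjusted p = 0.000695). Its highest value in any Cop gland was 4.41, under the lowest 40th percentile of 4.94, so it passed the filter only through F344 glands. The F344 control glands at 6 h were widely spread, from 4.30 to 5.88. This call is a description and is among the lower ones counted next. In all, 4 of 25 listed transporters were higher and 5 lower in Cop at 6 h (36%, against 19% of all probe sets), 2 and 2 at 1 d (16%, against 15.2%), and 1 and 1 at 30 d (8%, against 2.83%). At 30 d, against the earlier times, 3 were higher and 5 lower in F344 control glands (32%, against 27.1% of all), and none was higher and 3 lower in Cop control glands (12%, against 7.5%). Slc36a2 was lower in both, by 2.03 in F344 (adjusted p = 6.11e-10) and by 1.39 in Cop (adjusted p = 4.13e-06). Slc6a6, the taurine carrier, was higher at 30 d in F344 (0.54, adjusted p = 0.00184).

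Of 27 tested genes that respond to amino acid shortage, 1 was higher and 2 were lower after NMU in Cop at 6 h (11.1%, against 6.57% of all probe sets). In F344 at 6 h 1 was higher and 1 lower (7.41%, against 0.622%). The lower one was Aldh18a1 of proline synthesis (-0.81, adjusted p = 0.00145), whose call was lost with only the compared arrays (0.0739). Nupr1, a stress-induced regulator of transcription, was higher in both, by 0.86 in Cop (adjusted p = 0.00155) and by 1.08 in F344 (adjusted p = 0.00167). Phgdh, the first enzyme of serine synthesis, was lower in Cop at 6 h (-0.65, adjusted p = 0.0180), but not without Cop control replicate 1 (0.0623) or 3 (0.0695), or Cop NMU replicate 1 (0.109). Asns, the other lower gene there (-0.52), kept its call in 6 of 14 alternatives, and in 1 of 6 with an array left out. Cbs, an enzyme of cysteine synthesis, was the one gene of the list called in Cop at 1 d (1.44, adjusted p = 0.00138). At 30 d 1 of 27 was higher (Atf5) and 1 lower (Mthfd2) in Cop (7.41%, against 9.9% of all), and 2 were lower (Shmt2 and Cth) in F344 (7.41%, against 3.29%). All 4 of these calls were lost with only the compared arrays in the model. Atf5 (0.65) was also lost without Cop control replicate 2 (adjusted p = 0.0501) or Cop NMU replicate 3 (0.160). Mthfd2 (-0.71) was lost without Cop control replicate 1 (0.149) or 3 (0.0920), or Cop NMU replicate 2 (0.207) or 3 (0.250). Shmt2 (-0.50) and Cth (-1.29) were lost without F344 control replicate 1 (0.0749 and 0.296) or 3 (0.0981 and 0.103), or F344 NMU replicate 1 (0.131 and 0.175) or 2 (0.1001 and 0.144). Shmt2 was also lost with quantile normalization. Mthfd2 and Cth were also lost with no filter, and with F344 control replicates 1 and 2 at 1 d averaged. The list's median difference in Cop at 6 h was 0.07, against -0.0017 over all probe sets. In control glands at 30 d against earlier times, 2 of 27 were higher and 10 lower in F344 (44.4%, against 27.1% of all), and none was higher and 5 lower in Cop (18.5%, against 7.5%). The serine synthesis enzymes Psat1, by -1.54 in F344 and -0.87 in Cop, and Psph, by -1.40 in F344 and -1.26 in Cop, were among those lower in both strains.

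Of 11 tested enzymes of glutamine and glutamate, 1 was higher after NMU in Cop at 6 h (9.09%, against 6.57% of all). It was Glul, which makes glutamine from glutamate (0.62, adjusted p = 0.0120), and its call was lost without Cop control replicate 2 (0.0643) or Cop NMU replicate 3 (0.0567) at 6 h. Gpt, an alanine and glutamate aminotransferase, was lower in Cop than in F344 control glands at 6 h (-1.44, adjusted p = 1.13e-07) and at 1 d (-1.79, adjusted p = 1.41e-09). Of 22 tested genes of the mTORC1 pathway, 1 was lower in Cop at 6 h after NMU (4.55%, against 6.57% of all). It was Rptor, a subunit of the complex (-0.57, adjusted p = 0.0316), and the call was lost without Cop control replicate 1 (0.213) or 2 (0.0510), or Cop NMU replicate 1 (0.0672), 2 (0.145) or 3 (0.0589). At 6 h in F344 and at 1 d in both strains no gene of the glutamine or mTORC1 lists was called after NMU. At 30 d, where 9.9% of all were called in Cop and 3.29% in F344, 1 glutamine gene (Ppat) was lower in each strain (9.09%). Of the mTORC1 genes, Eif4e and Lamtor5 were lower in Cop (9.09%), and Eif4e in F344 (4.55%). All these calls at 30 d were lost with only the compared arrays in the model. With 1 of the 6 arrays left out, Ppat held in 5 of 6 runs in Cop and 2 of 6 in F344. Eif4e held in 6 of 6 in Cop and 2 of 6 in F344, and Lamtor5 in 3 of 6 in Cop.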

How the data were processed

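The deposited values are the authors' log2 expression values per probe set. Per the submitters' processing notes the software was GCOS. The step from probe signals to these values, and any scaling between arrays, were not given in the sources used here. According to the labels' protocols, RNA was prepared with Qiagen columns and biotinylated cRNA was made from total RNA. Array medians differed by at most 0.110, so no further normalization was applied. The number of arrays limits the precision. Gene symbols came from the platform annotation: 20832 probe sets carry 1 symbol, 436 several and 9831 none. For a gene with several probe sets the one of highest mean represents it, and the 7 members are given by every probe set. The 57 control probe sets were left out, and the filter left out 10294 others.

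One limma model (version 3.58.1, R 4.3.3) held the means of the 12 groups over 36 arrays (trend and robust options, 24 residual degrees of freedom), with two-sided tests and Benjamini-Hochberg adjustment within each of 14 comparisons: NMU against control (6), the strain difference in that response (3), Cop against F344 controls (3) and 30 d against the earlier control glands (2). The script was tested on simulated data. The members, the gene lists and the tests were chosen with earlier results of these data known. Beside the 7 members, the text names listed transporters (up to 4 of smallest p in each direction and comparison), up to 3 from each other pathway list, and the 3 genes of highest r, and prints a part of them. The labels number the replicates without saying what a number stands for. Same-numbered Cop arrays deviated together at 6 h (correlations 0.114, 0.142 and 0.435) and at 1 d (0.202, 0.424 and 0.315). In F344 the values were -0.014, 0.350 and 0.507 at 6 h, and 0.249, -0.081 and 0.251 at 1 d. At 30 d they lay between -0.351 and 0.059 in both strains. The main model did not use the numbers, and a block on them was an alternative. For NMU responses and their strain differences the block was set within each strain and time. For comparisons of control glands it ran over all groups. Promoter windows are RefSeq's for GRCr8, and the array files name no build.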

Additional observations from a re-analysis of the deposited data

Results flagged for a closer look

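2 results stood out because the response to NMU differed between the strains by the test of that difference itself. Slc1a5 at 6 h had a Cop response lower than the F344 response by 1.20 on the log2 scale (difference -1.20, limma, adjusted p = 0.000127). All 3 Cop NMU glands lay below all 3 Cop control glands, and the same order held in F344 with a smaller difference. Slc36a2 at 6 h had a difference between the responses of -1.30 (adjusted p = 0.0156), with all 3 Cop NMU glands below all 3 Cop control glands and overlapping F344 glands. Without F344 control replicate 2 at 6 h it was -1.27 (adjusted p = 0.0543), and without F344 NMU replicate 2 at 6 h it was -1.23 (adjusted p = 0.0646). The text gives both genes per gland. No explanation was weighed.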

How the results depend on the processing

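No result reversed its direction where it was called. The number of called member probe sets moved as follows. In Cop at 1 d it was 1 with quantile normalization and 1 with only the compared arrays in the model, against 0. In Cop at 30 d and F344 at 30 d it was 0 with only the compared arrays, and in F344 at 6 h 0 with that model and 0 with no filter, against 1 each. Between the strains' control glands at 6 h it was 3 with only the compared arrays, against 2. For the F344 control glands at 30 d it was 2 with only the compared arrays and 4 with quantile normalization, against 3. Averaging each gene's probe sets gave 0 member genes called in F344 at 6 h, against 1. Leaving out single arrays gave 0 to 1 in F344 at 6 h, 0 to 3 in F344 at 30 d, 0 to 1 in Cop at 1 d, 0 to 2 in Cop at 30 d, 2 to 3 for the strains' control glands at 1 d and 1 to 3 for the F344 control glands at 30 d. Of the 14 called member results, the 6 of Slc1a5 and Slc7a1 1368391_at between the strains' control glands at 6 h held under every alternative run. With the replicate block, every count of called members was the same as without it, for example 1 in Cop at 6 h. Over all probe sets it gave 1310 calls there (1364 without the block) and 134 at 1 d (158 without). The block changed no member call. It ended the Slc7a10 call in F344 at 30 d (adjusted p = 0.0677) and others among the listed genes. Of 91 called results of listed genes, 41 held throughout and 50 were lost in at least 1 alternative. Counts over all probe sets depended most on single arrays and on the arrays in the model: with only the compared arrays they were 7 in F344 at 6 h (129), 2 in F344 at 30 d (683), 2141 in Cop at 6 h (1364), 255 in Cop at 1 d (158), 0 in Cop at 30 d (2054), 432 and 141 for the strain difference at 6 h (182) and 1 d (43), 133 for the control glands of the strains at 30 d (587) and 663 for Cop control glands at 30 d (1557). With no filter 85 were called in F344 at 6 h, and 26 for the strain difference at 1 d with F344 control replicates 1 and 2 averaged. Leaving out single arrays gave 23 to 136 in F344 at 6 h, 29 to 1109 in F344 at 30 d, 654 to 1158 in Cop at 6 h, 45 to 151 in Cop at 1 d, 231 to 3810 in Cop at 30 d, 86 to 196 and 18 to 48 for the strain difference at 6 h and 1 d, 2146 to 3588 and 322 to 797 between the strains' control glands at 6 h and 30 d, and 511 to 1726 for Cop control glands at 30 d. The causes of these moves were not tested, beyond the smaller number of arrays. Slc1a1 lay near the limit of the filter, and its probe sets were not tested with the stricter one.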
